A study of Mus musculus with 10 samples.

Results

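The genes of 4 steroid hormone receptors were followed in nuclei of the paraventricular thalamus (PVT) and its neighbouring regions. They were *Esr1* (estrogen receptor alpha), *Pgr* (progesterone receptor), *Nr3c1* (glucocorticoid receptor) and *Nr3c2* (mineralocorticoid receptor), which are 4 of the 33502 genes in the deposited count matrix. The members were chosen by symbol, and none of their values was used to form the marker groups of neurons. The study itself names *Esr1* as a marker of a PVT subtype, from clusters of these same nuclei. A difference of *Esr1* between PVT subtypes was thus known before the tests, which are no independent support for it. The cell types are the clusters of the authors, made from the variable genes of the same nuclei. All mice were C57BL/6J, 12 weeks old, with no treatment or transgene named in the labels. The tissue came from fresh punches, and the methods state that punches of 4 mice were pooled for each sample. Of the 10 libraries, 6 are labelled as female, and the other 4 carry no sex in their titles but are given as male in the deposited metadata. Pooled animals share a library, so that the library was the replicate in every test. Between female and male libraries, the p-values measure the spread between libraries. The fits over cell types and marker groups hold library as a term. Their p-values measure how far differences between groups vary from library to library, with dispersion estimated from all sums of a fit.

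The 4 receptors belong to the nuclear receptor family. In the classical pathway a steroid crosses the cell membrane, binds the receptor, releases it from a complex with heat shock proteins and immunophilins, and the receptor then binds response elements in DNA and recruits coregulators. The glucocorticoid and mineralocorticoid receptors both bind corticosterone, the main glucocorticoid of mice, and the mineralocorticoid receptor does so with the higher affinity. In many tissues estrogen raises the progesterone receptor through estrogen receptor alpha. The PVT is a midline thalamic nucleus known for its part in stress, arousal and motivated behaviour.

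The matrix held 20503 nuclei with 7568267 to 55956635 unique molecular identifiers (UMIs) per male library and 5119927 to 12891409 per female library. Neurons had a median of 12586 to 21085 UMIs in male and 5666 to 9770 in female libraries. The median mitochondrial percent, as computed by the authors, was 0.123 to 1.30 in the male libraries and 1.04 to 1.45 in the female ones. There were 46 cell barcodes that occurred in more than 1 library. In each of the 8 deposited cell types, 3 of 3 markers were at their highest in the type they mark. *Esr1* had 1419 UMIs in male and 494 in female libraries, in 1338 nuclei. *Pgr* had 3207 and 943 UMIs in 3029 nuclei. *Nr3c1* had 20778 and 7401 UMIs in 11808 nuclei, and *Nr3c2* had 22192 and 6981 UMIs in 11481 nuclei. Levels are given as CPM, the UMIs of a gene per 1000000 UMIs summed in a library and group. The counts come from the 3′ ends of transcripts and are not scaled by length, so that levels were compared between groups of nuclei and never between genes.

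The gene bodies lie, in GRCm38 by the GENCODE annotation, at chr10:4611593-5005614 (*Esr1*), chr9:8899833-8968611 (*Pgr*) and chr8:76899442-77245012 (*Nr3c2*), each on the plus strand. No annotated gene overlaps *Esr1* or *Pgr*, while *Nr3c2* overlaps 1 gene on its own strand (*Gm23260*) and 2 on the other (*Gm10649* and *Gm24838*). Promoters in RefSeq were taken for 3 of the 4 genes (*Nr3c1* was left out of the selection) and are printed to show the start of each gene and its CpG content. Each runs from 250 bases before to 50 bases after an annotated start (RefSeq, GRCm38.p6, plus strand, 5′ to 3′), with every CpG in capitals.
Esr1, chr10:4611739-4612038: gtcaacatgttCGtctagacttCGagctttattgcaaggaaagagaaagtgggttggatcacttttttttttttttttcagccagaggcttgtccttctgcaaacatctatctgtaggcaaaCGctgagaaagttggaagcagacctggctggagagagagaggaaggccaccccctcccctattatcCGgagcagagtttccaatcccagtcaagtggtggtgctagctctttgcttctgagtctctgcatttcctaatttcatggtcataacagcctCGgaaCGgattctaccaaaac
Pgr, chr9:8899583-8899882: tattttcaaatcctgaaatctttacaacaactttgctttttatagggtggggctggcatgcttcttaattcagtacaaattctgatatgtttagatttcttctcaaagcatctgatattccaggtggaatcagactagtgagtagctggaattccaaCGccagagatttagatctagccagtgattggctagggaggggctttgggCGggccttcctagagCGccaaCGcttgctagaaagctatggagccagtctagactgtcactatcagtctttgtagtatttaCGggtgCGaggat
Nr3c2, chr8:76902080-76902379: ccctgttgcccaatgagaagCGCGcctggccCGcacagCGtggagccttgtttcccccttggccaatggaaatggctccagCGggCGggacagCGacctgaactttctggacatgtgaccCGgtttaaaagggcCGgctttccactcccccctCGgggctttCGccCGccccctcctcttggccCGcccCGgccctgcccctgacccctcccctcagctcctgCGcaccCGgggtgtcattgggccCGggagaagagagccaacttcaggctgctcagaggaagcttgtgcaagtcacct
The *Esr1* window held 6 CpGs at 46.3% GC, the *Pgr* window 6 CpGs at 43.7% GC and the *Nr3c2* window 17 CpGs at 65.7% GC. A second RefSeq start of *Esr1* (chr10:4709908-4710207) held 12 CpGs at 59.3% GC. The median over the 32851 promoters of the same length was 7 CpGs and 52.7% GC. The hexamers AGAACA, of corticosteroid and progesterone response elements, and AGGTCA, of estrogen response elements, were searched on both strands. They occurred in 19.0% and 16.3% of all promoters and in 0 of these 4 windows, which says only that the letters are not in these windows.

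UMIs were first summed per library and deposited cell type, with the 8 neuron clusters and the astrocyte clusters joined, and each type was compared with the mean of the other types by edgeR's quasi-likelihood test with Benjamini-Hochberg adjustment over the genes tested and library as a term. A gene was called when the adjusted p was below 0.05 and the log2 fold change lay beyond 0.5 in either direction. A sum was kept if it held at least 10 nuclei. The 4 receptors were found in different types: *Esr1* was highest in microglia and higher in neurons than in macroglia, *Pgr* was highest in neurons, *Nr3c1* was present in each type and lowest in ependymal cells, and *Nr3c2* was highest in fibroblasts and astrocytes.

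*Esr1*, the receptor that carries most nuclear estrogen signalling in the brain, was at 38.3 ± 12.2 CPM (SD, n = 10) in microglia, with a lowest value of 17.4, a median of 39.7 and a highest value of 53.8 CPM. In neurons it was at 13.02 ± 3.001 CPM (SD, n = 10), with a lowest value of 6.82, a median of 13.1 and a highest value of 16.7 CPM, so that microglia and neurons did not overlap between libraries. How many other genes separate microglia from neurons in this way was not counted. The microglial level rests on 112 UMIs, found in 78 of 993 nuclei. Astrocytes (1.68 ± 1.39 CPM, n = 10) and oligodendrocytes (2.36 ± 2.06 CPM, n = 10) were the types with the lowest means. *Esr1* and *Pgr* did not pass the filter on low counts over all cell types, so that both were tested in the fit of 28845 genes without it. The log2 fold change of *Esr1* was 2.49 (adjusted p = 6.44e-18, SE 0.25) in microglia, 1.39 (adjusted p = 7.18e-12, SE 0.18) in neurons, -1.83 (adjusted p = 3.67e-05, SE 0.39) in oligodendrocytes and -2.07 (adjusted p = 2.17e-08, SE 0.33) in astrocytes. The median over all genes of that fit was 0.56 in neurons, and both neurons and microglia kept their calls under each alternative run, with neurons at 2.09 (adjusted p = 2.87e-10) among female libraries alone. The calls in oligodendrocytes and astrocytes were lost at equal depth per nucleus, with each nucleus thinned to 2000 UMIs (-1.40 (adjusted p = 0.113) and -1.38 (adjusted p = 0.0588)), and among female libraries alone (-0.43 (adjusted p = 1) and -2.01 (adjusted p = 1)).

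Fibroblasts stood second by mean (24.02 ± 40.8 CPM, n = 8) through a single library. Of their 13 *Esr1* UMIs, 10 were in female library 3 (121 CPM), and 4 of 8 libraries were at 0. The call in fibroblasts (1.57 (adjusted p = 0.0313, SE 0.52)) turned to -0.12 (adjusted p = 1) without that library, and was lost at equal depth per nucleus (0.05 (adjusted p = 1)), without library as a term (1.54 (adjusted p = 0.0561)) and among male libraries alone (-0.83 (adjusted p = 1)). Female libraries alone gave 3.20 (adjusted p = 3.73e-05). *Esr1* was thus called in 5 of 8 types, where the share of all genes called was 24.3% in microglia, 45.3% in neurons, 10.5% in fibroblasts, 24.9% in astrocytes and 22.6% in oligodendrocytes. It did not pass in ependymal cells (6.16 ± 4.04 CPM, n = 9, background 24.8%), oligodendrocyte precursor cells (OPCs, 5.64 ± 5.27 CPM, n = 9, background 15.4%) and endothelial cells (4.60 ± 10.0 CPM, n = 7, background 15.8%). In the order of mean levels, the gap between neurons and ependymal cells exceeded the larger SD of the pair, and no other gap between neighbours did. The summed level of 3 neuron markers (*Rbfox3*, *Snap25* and *Syt1*) was 2781 CPM in neurons, 471 CPM in microglia and 599 CPM in fibroblasts. The part of neuronal RNA in these levels was not tested.

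*Pgr*, whose product binds progesterone, was at 29.1 ± 3.33 CPM (SD, n = 10) in neurons, with a lowest value of 23.7, a median of 28.8 and a highest value of 35.02 CPM. Every other type had a mean of 3.67 to 10.9 CPM, and the gap between neurons and the next type exceeded the larger SD. In endothelial cells, the second by mean, 1 library at 37.6 CPM lay above all neuron libraries, on 6 UMIs in the 7 libraries together. The log2 fold change in neurons was 2.90 (adjusted p = 4.21e-39, SE 0.17), and it was called under each alternative run. The other call was in astrocytes (-0.73 (adjusted p = 0.0383, SE 0.28), level 3.91 ± 2.15 CPM, n = 10). It was lost without any 1 of 6 libraries (adjusted p up to 0.101, without male library 1, where the value was -0.60) and turned to 0.32 at equal depth per nucleus. It was lost as well without library as a term (-0.67 (adjusted p = 0.261)), among genes counted in both sexes (-0.72 (adjusted p = 0.0503)) and in male (0.10 (adjusted p = 1)) and female libraries alone (-0.20 (adjusted p = 1)). In oligodendrocytes -0.79 (adjusted p = 0.0796, SE 0.34) did not pass, while DESeq2's size factors (-0.87 (adjusted p = 0.0497)), DESeq2 (adjusted p = 0.0425) and the fit without male library 3 (-0.95 (adjusted p = 0.0474)) gave a call.

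*Nr3c1*, the low-affinity corticosteroid receptor that responds to stress levels of the hormone, was at 338 ± 70.5 CPM (SD, n = 7) in endothelial cells, with a lowest value of 226, a median of 332 and a highest value of 452 CPM. Microglia followed at 306 ± 53.6 CPM (n = 10), with a lowest value of 239, a median of 312 and a highest value of 401 CPM. These types overlapped each other. Neurons were at 159 ± 25.8 CPM (n = 10), below astrocytes (228 ± 24.2 CPM, n = 10) and oligodendrocytes (209 ± 39.96 CPM, n = 10), and next to fibroblasts (175 ± 69.1 CPM, n = 8) and OPCs (175 ± 34.5 CPM, n = 9). Ependymal cells, the ciliated lining of the ventricle, had the lowest level at 74.6 ± 27.6 CPM (n = 9), with a lowest value of 34.1, a median of 68.7 and a highest value of 127 CPM. Between neighbours in this order, microglia and astrocytes and, at the low end, neurons and ependymal cells differed by more than the larger SD.

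In the fit of 9842 genes, *Nr3c1* was called in 4 of 8 types. The log2 fold change was 0.63 (adjusted p = 1.49e-04, SE 0.14) in endothelial cells (background 40.3% of genes called), 0.62 (adjusted p = 3.28e-07, SE 0.10) in microglia (background 50.3%) and -1.41 (adjusted p = 9.27e-15, SE 0.14) in ependymal cells (background 45.9%). At equal depth per nucleus the endothelial call was lost (0.52 (adjusted p = 0.0959)). The fourth call, in fibroblasts (-0.54 (adjusted p = 0.0159, SE 0.17), background 22.2%), was lost without any 1 of 6 libraries, where it ran up to -0.39 (adjusted p = 0.107) without male library 4. It was lost as well with DESeq2's size factors (-0.39 (adjusted p = 0.0994)), with DESeq2 (-0.39 (adjusted p = 0.115)), among genes counted in both sexes (-0.48 (adjusted p = 0.0359)), at equal depth per nucleus (-0.71 (adjusted p = 0.285)) and in male (-0.64 (adjusted p = 0.249)) and female libraries alone (-0.41 (adjusted p = 0.233)). In astrocytes the value was 0.43 (adjusted p = 6.06e-05, SE 0.09), below the size needed for a call (background 41.1%). It reached that size with no filter (0.53 (adjusted p = 1.85e-05)), in female libraries alone (0.52 (adjusted p = 8.11e-05)) and at equal depth per nucleus (0.58 (adjusted p = 1.42e-05)). In neurons it was 0.05 (adjusted p = 0.62, SE 0.09) (background 58.2%). Fibroblasts thus had a lower fold change than neurons but a higher mean level (175 beside 159 CPM). CPM has no scaling between types, while the fold changes use TMM scaling and a library term, so that the orders can differ.

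*Nr3c2*, the high-affinity corticosteroid receptor that is occupied already at resting hormone levels, was at 1037 ± 393 CPM (SD, n = 8) in fibroblasts, with a lowest value of 410.5, a median of 1092 and a highest value of 1504 CPM. Astrocytes were at 413 ± 101 CPM (n = 10), with a lowest value of 325, a median of 365 and a highest value of 629 CPM, and endothelial cells at 302 ± 103 CPM (n = 7). The remaining types lay lower, from 171 ± 47.7 CPM in microglia to 112 ± 26.3 CPM in oligodendrocytes (n = 10 each), with neurons at 136 ± 15.6 CPM (n = 10). No neuron library (highest 167 CPM) reached an astrocyte library, and the other genes that separate these types were not counted. The gaps from fibroblasts to astrocytes, from astrocytes to endothelial cells and from endothelial cells to microglia each exceeded the larger SD, and those further down did not.

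*Nr3c2* was called in 6 of 8 types. It was higher in fibroblasts, with a log2 fold change of 2.17 (adjusted p = 4.99e-25, SE 0.12), and in astrocytes, with 1.11 (adjusted p = 1.31e-16, SE 0.10). It was lower in oligodendrocytes (-1.03 (adjusted p = 3.85e-11, SE 0.12), background 46.7%), ependymal cells (-0.67 (adjusted p = 1.70e-05, SE 0.14)), microglia (-0.64 (adjusted p = 1.16e-05, SE 0.13)) and OPCs (-0.57 (adjusted p = 3.66e-04, SE 0.13), background 33.4%). In male libraries alone the calls in microglia (-0.40 (adjusted p = 0.166)) and OPCs (-0.55 (adjusted p = 0.193)) did not pass. In neurons the value of -0.49 (adjusted p = 4.05e-05, SE 0.11) lay just short of the size needed. By unscaled CPM, microglia (171) lay above neurons (136), the reverse of the order of their fold changes. With DESeq2's size factors in place of TMM the median of all genes in neurons moved by -0.19, and *Nr3c2* stood at -0.69 (adjusted p = 1.67e-08).

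**Figure D1:**
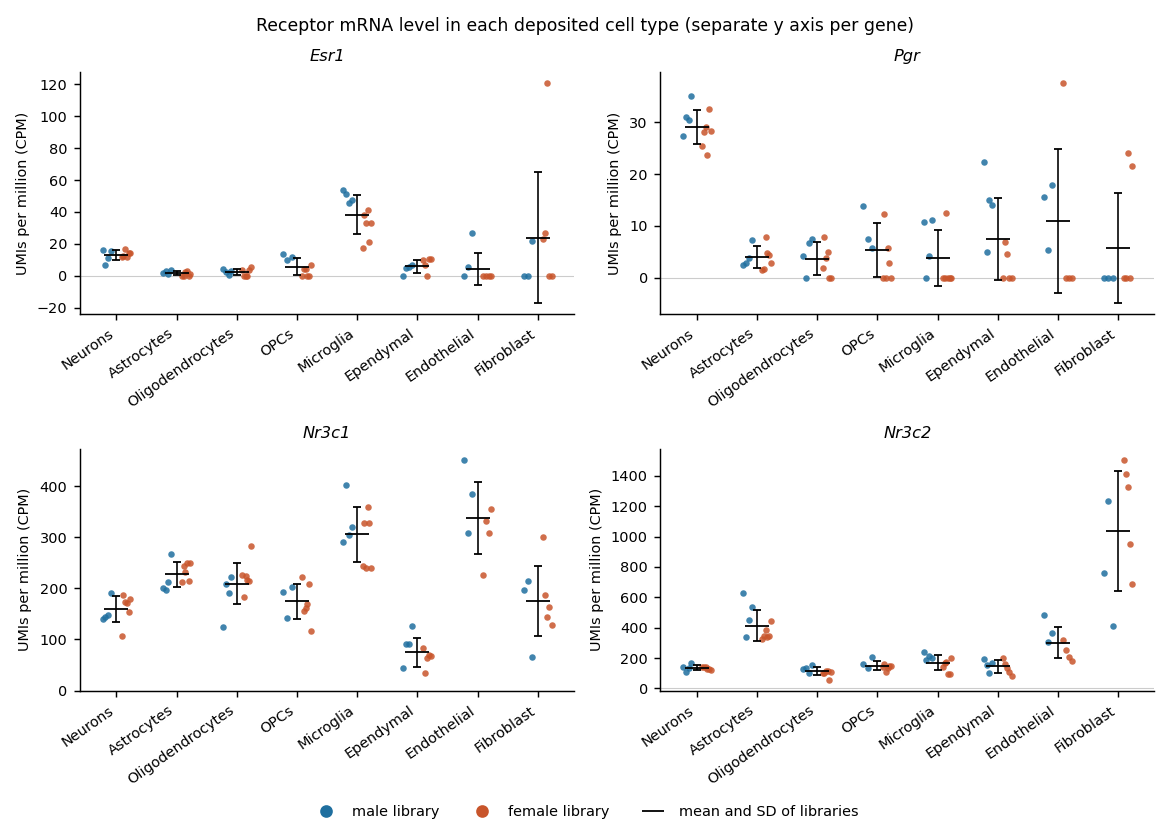
Level of each receptor in CPM (y axis, 1 scale per gene) in the 8 deposited cell types (x axis). Each point is 1 library (male blue, female orange), and the black lines are the mean and SD over libraries. *Esr1* is highest in microglia (mean 38.3 CPM), apart from 1 fibroblast library at 121 CPM, *Pgr* in neurons (29.1 CPM), and *Nr3c2* in fibroblasts (1037 CPM), while *Nr3c1* is lowest in ependymal cells (74.6 CPM).

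Neurons with more than 1000 genes (10307 of 10410) were then split by the study's markers of the regions in the punch. The markers were *C1ql3* for the PVT, *Adarb2* for the mediodorsal thalamus, *Gad2*, a GABA-synthesizing enzyme, for inhibitory neurons, and *Nwd2* for the habenula. A nucleus went to the marker that stood highest relative to its own mean among nuclei with a UMI of it, if no second marker reached 0.5 of it. This gave 5315 *C1ql3*+, 2034 *Adarb2*+, 241 *Gad2*+ and 966 *Nwd2*+ nuclei, with 810 mixed and 941 without a marker. Of the *Gad2*+ neurons, 234 in 8 libraries entered the sums. The *C1ql3*+ group held mainly nuclei of the deposited clusters Neurons (1), (2) and (4), with 49.99%, 25.02% and 15.9%. The *Nwd2*+ group was 76.8% Neurons (6), the *Gad2*+ group 61.8% Neurons (5) and the *Adarb2*+ group 51.8% Neurons (3).

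*Esr1* had its highest means in *C1ql3*+ and *Gad2*+ neurons and *Nr3c1* in *C1ql3*+ and *Adarb2*+ neurons, whereas *Nwd2*+ neurons were the group with the lowest mean of *Esr1*, *Pgr* and *Nr3c1*. *Esr1* was at 18.01 ± 4.51 CPM (SD, n = 10) in *C1ql3*+ neurons, with a lowest value of 7.52, a median of 19.3 and a highest value of 24.3 CPM. It was at 5.13 ± 1.85 CPM in *Adarb2*+ neurons, with a lowest value of 1.89, a median of 4.92 and a highest value of 8.83 CPM, and at 3.23 ± 3.85 CPM in *Nwd2*+ neurons (n = 10 each). In 9 of 10 libraries the *C1ql3*+ level lay above each *Adarb2*+ level. Against the mean of the other 3 groups, the log2 fold change of *Esr1* was 1.29 (adjusted p = 4.08e-09, SE 0.15) in *C1ql3*+, -1.05 (adjusted p = 4.44e-05, SE 0.20) in *Adarb2*+ and -1.27 (adjusted p = 7.07e-05, SE 0.26) in *Nwd2*+ neurons. In *Nwd2*+ neurons 4 of 10 libraries were at 0, on 42 UMIs in all, and the value moved to -1.95 (adjusted p = 1.29e-07) without male library 4. The *Gad2*+ level of 18.3 ± 11.5 CPM (n = 8) spread from 0 to 40.03 CPM on 35 UMIs. Its call (1.02 (adjusted p = 0.0276, SE 0.32)) was lost without female library 3 (0.97 (adjusted p = 0.0658)), without male library 2 (0.87 (adjusted p = 0.0857)) and without male library 3 (0.88 (adjusted p = 0.242)). It was lost as well without library as a term (1.04 (adjusted p = 0.0716)), with 1 marker UMI more (1.13 (adjusted p = 0.078)) and in male (0.98 (adjusted p = 0.261)) and female libraries alone (1.20 (adjusted p = 0.279)).

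*Nr3c1* was at 185 ± 24.7 CPM in *C1ql3*+ neurons, with a lowest value of 148, a median of 186 and a highest value of 219 CPM, and at 154 ± 18.2 CPM in *Adarb2*+ neurons (SD, n = 10 each). *Nwd2*+ neurons were at 62.97 ± 21.6 CPM (n = 10), with a lowest value of 29.5, a median of 67.99 and a highest value of 93.7 CPM. No *Nwd2*+ library reached the lowest *C1ql3*+ or *Adarb2*+ library, a separation that was not counted over all genes. The log2 fold change was 0.76 (adjusted p = 6.41e-08, SE 0.10) in *C1ql3*+ and -1.48 (adjusted p = 4.96e-12, SE 0.14) in *Nwd2*+ neurons. The call in *Adarb2*+ neurons, 0.61 (adjusted p = 7.66e-06, SE 0.11), fell under the size needed without male library 2 (0.48 (adjusted p = 3.01e-05)), at equal depth per nucleus (0.36 (adjusted p = 0.0251)) and in female libraries alone (0.37 (adjusted p = 0.00499)). In clusters made without the markers it was 1.12 (adjusted p = 7.53e-16), and the *C1ql3* value was 1.19 (adjusted p = 2.59e-17). *Gad2*+ neurons varied from 23.7 to 302 CPM between 8 libraries and gave 0.11 (adjusted p = 0.762, SE 0.16).

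*Pgr* differed less between the regional groups. It was at 31.2 ± 3.56 CPM in *C1ql3*+ (SD, n = 10), 37.1 ± 16.9 CPM in *Gad2*+ (n = 8), 26.3 ± 6.61 CPM in *Adarb2*+ (n = 10) and 18.8 ± 9.31 CPM in *Nwd2*+ neurons (n = 10), and all 4 groups overlapped. Its call was in *Nwd2*+ neurons (-0.99 (adjusted p = 1.11e-06, SE 0.16)), where female libraries alone gave -0.58 (adjusted p = 0.124). *Nr3c2* ran from 118 ± 20.5 CPM in *Adarb2*+ (n = 10) to 162 ± 32.7 CPM in *Gad2*+ neurons (n = 8). It was not called in any group, with log2 fold changes of -0.21 to 0.18 and adjusted p of 0.0704 or above. In clusters of neurons made without the 8 markers, *Nr3c2* (0.57 (adjusted p = 5.97e-07)) and *Pgr* (0.51 (adjusted p = 0.0026)) were called in the *Gad2* group. The members called numbered 2 of 4 in *C1ql3*+ (background 17.6% of 12031 genes), 2 in *Adarb2*+ (25.5%), 1 in *Gad2*+ (8.82%) and 3 in *Nwd2*+ neurons (34.4%).

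**Figure D2:**
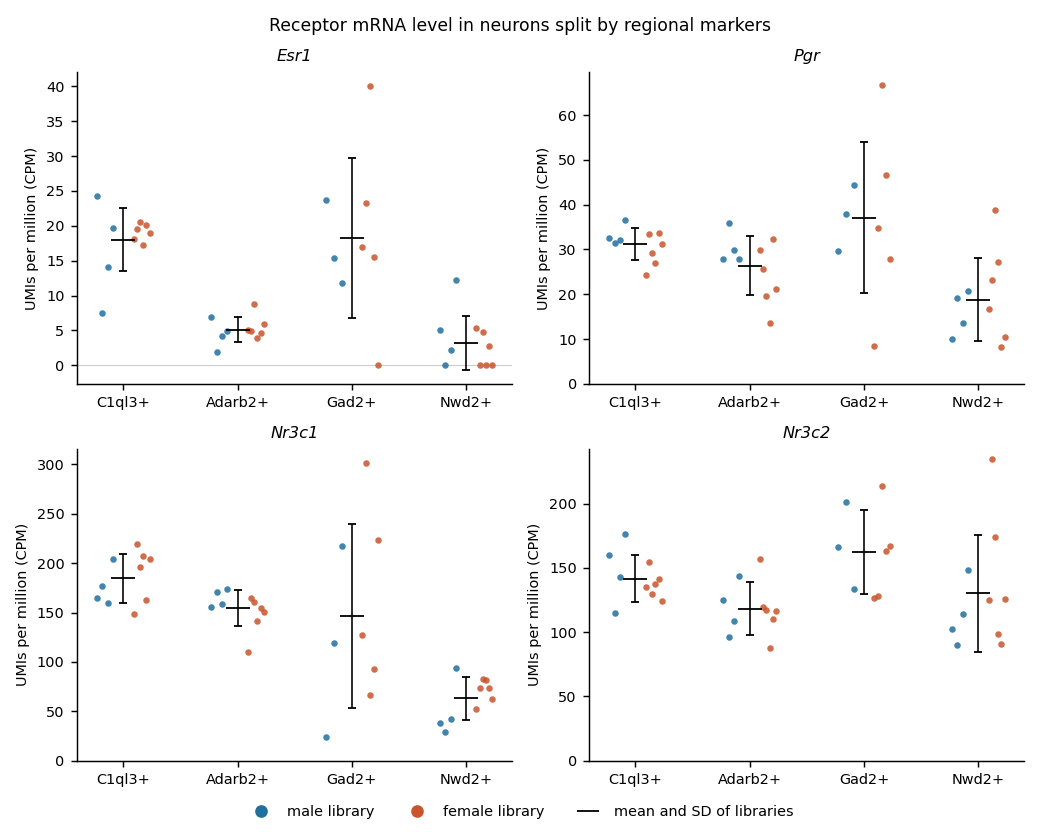
Level of each receptor in CPM (y axis, 1 scale per gene) in neurons split by 4 regional markers (x axis). Each point is 1 library (male blue, female orange), and the black lines are the mean and SD over libraries. *Esr1* is at means of 18.01 and 18.3 CPM in *C1ql3*+ and *Gad2*+ neurons and at 5.13 and 3.23 CPM in *Adarb2*+ and *Nwd2*+ neurons, and *Nr3c1* is lowest in *Nwd2*+ neurons (62.97 CPM).

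The *C1ql3*+ neurons were split in the same way by 4 markers of PVT subtypes, into 1237 *Cadps2*+, 1141 *Col12a1*+, 704 *Egflam*+ and 218 *Npsr1*+ nuclei, of which 204 in 8 libraries entered the sums for *Npsr1*. A further 1597 had no marker and 418 were mixed. Nuclei of the *Col12a1*+ and *Egflam*+ groups were mostly from Neurons (1) (87.2% and 78.6%), those of the *Cadps2*+ group from Neurons (4) (57.1%) and Neurons (2) (30.4%), and those of the *Npsr1*+ group from Neurons (2) (64.2%). Among these subtypes, *Esr1* was called higher in *Col12a1*+ and *Egflam*+ neurons and lower in *Npsr1*+ and, less stably, *Cadps2*+ neurons. *Nr3c2* was called higher in *Col12a1*+ and lower in *Cadps2*+ neurons, while *Nr3c1* and *Pgr* showed no call.

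*Nr3c2* was at 79.2 ± 15.9 CPM in *Cadps2*+ neurons, with a lowest value of 62.3, a median of 72.7 and a highest value of 112 CPM. It was at 185 ± 42.7 CPM in *Col12a1*+ neurons, with a lowest value of 115, a median of 177 and a highest value of 274 CPM, at 159 ± 19.4 CPM in *Egflam*+ neurons (SD, n = 10 each) and at 136 ± 45.1 CPM in *Npsr1*+ neurons (n = 8). No *Cadps2*+ library reached the lowest *Col12a1*+ or *Egflam*+ library. The share of all genes that separate these subtypes so was not counted. Relative to the other 3 subtypes on average, the log2 fold change was -0.98 (adjusted p = 3.71e-18, SE 0.07) in *Cadps2*+ and 0.72 (adjusted p = 2.18e-14, SE 0.07) in *Col12a1*+ neurons, both called under each alternative run. The former was -1.57 (adjusted p = 7.78e-29) in clusters made without the markers. *Egflam*+ neurons at 0.43 (adjusted p = 1.88e-06, SE 0.07) were short of the size needed, and passed it when 1 marker UMI more was asked for (0.55 (adjusted p = 4.15e-05)) and in clusters made without the markers (0.84 (adjusted p = 4.38e-22)). The *Egflam* group of those clusters is not the same set. It included a cluster of 682 nuclei with *Egflam* at 0.99 and *Npsr1* at 1.43 of their mean levels. Over the deposited clusters, Neurons (4), the main source of *Cadps2*+ nuclei, had the lowest *Nr3c2* mean, 51.7 ± 15.4 CPM, beside 178 ± 26.6 CPM in Neurons (1) (n = 10 each).

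*Esr1* was at 28.1 ± 12.2 CPM in *Col12a1*+ neurons, with a lowest value of 9.09, a median of 28.9 and a highest value of 45.7 CPM, and at 21.9 ± 8.88 CPM in *Egflam*+ neurons (SD, n = 10 each). It was at 10.1 ± 4.82 CPM in *Cadps2*+ neurons (n = 10), with a lowest value of 3.31, a median of 9.69 and a highest value of 18.7 CPM, and at 3.71 ± 5.02 CPM in *Npsr1*+ neurons (n = 8), where 4 of 8 libraries were at 0 and 12 UMIs were counted in all. The groups overlapped at their edges. The log2 fold change was 1.49 (adjusted p = 5.17e-12, SE 0.16) in *Col12a1*+, 1.17 (adjusted p = 3.69e-07, SE 0.18) in *Egflam*+ and -1.91 (adjusted p = 7.60e-05, SE 0.36) in *Npsr1*+ neurons. The call in *Cadps2*+ neurons (-0.75 (adjusted p = 0.00804, SE 0.23)) was lost without male library 4 (-0.40 (adjusted p = 0.401)), without library as a term (-0.58 (adjusted p = 0.221)) and among female libraries alone (-0.56 (adjusted p = 0.517)). It was -1.16 (adjusted p = 0.0111) with 1 marker UMI more and -1.40 (adjusted p = 1.31e-09) in clusters made without the markers. Among female libraries alone, the *Egflam*+ (1.02 (adjusted p = 0.127)) and *Npsr1*+ (-2.14 (adjusted p = 0.197)) values did not pass. *C1ql3*+ neurons without a subtype marker had 18.9 ± 6.22 CPM of *Esr1* and 151 ± 12.7 CPM of *Nr3c2* (n = 10).

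*Pgr* was at 30.3 to 34.6 CPM on average in the 4 subtypes, which overlapped throughout, with log2 fold changes of -0.09 to 0.07 and SEs of 0.10 to 0.16. *Nr3c1* ran from 168 ± 67.1 CPM in *Npsr1*+ (n = 8) to 214 ± 27.3 CPM in *Cadps2*+ neurons (n = 10). Its value in *Cadps2*+ neurons, 0.18 (adjusted p = 0.0169, SE 0.06), passed the adjusted p but not the size. *Nr3c1* and *Nr3c2* thus took different places in this subtype, with *Nr3c1* at its highest mean and *Nr3c2* at its lowest. The members called numbered 2 of 4 in *Cadps2*+ (background 10.4% of 8715 genes), 2 in *Col12a1*+ (8.07%), 1 in *Egflam*+ (5.7%) and 1 in *Npsr1*+ neurons (4.65%).

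**Figure D3:**
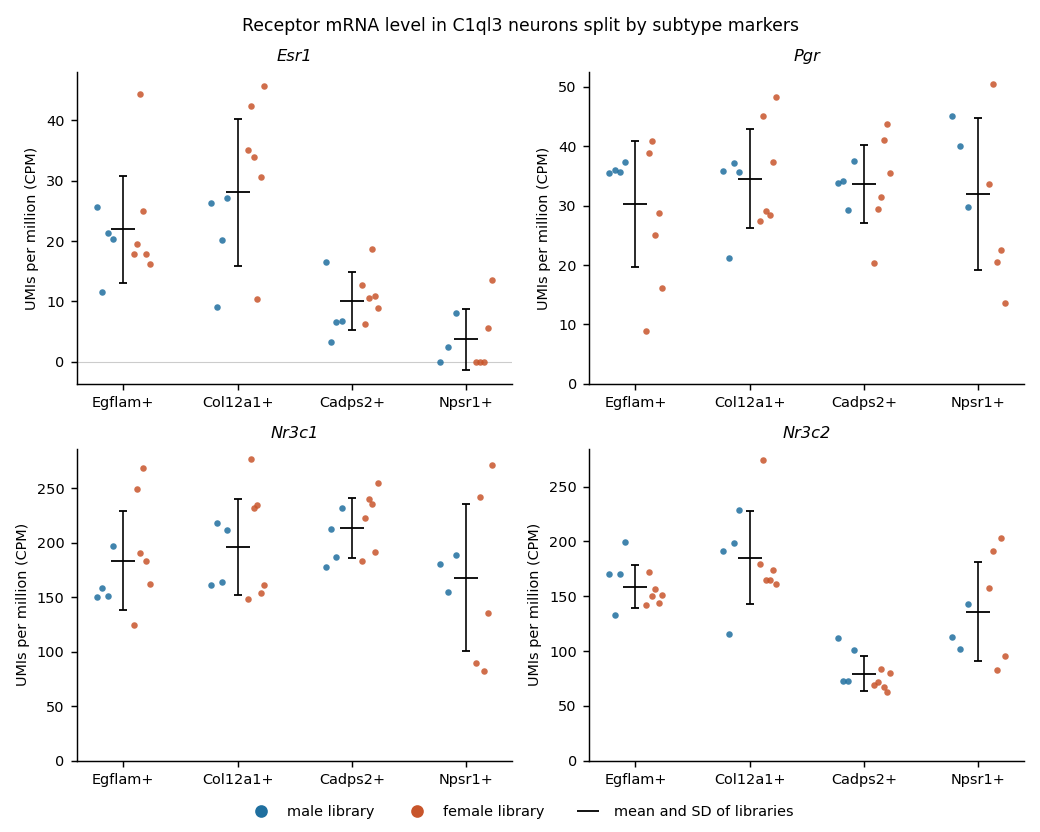
Level of each receptor in CPM (y axis, 1 scale per gene) in *C1ql3*+ neurons split by 4 subtype markers (x axis). Each point is 1 library (male blue, female orange), and the black lines are the mean and SD over libraries. *Nr3c2* in *Cadps2*+ neurons (mean 79.2 CPM) lies below every *Col12a1*+ and *Egflam*+ library, and the *Pgr* points of the 4 groups overlap.

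**Figure D4:**
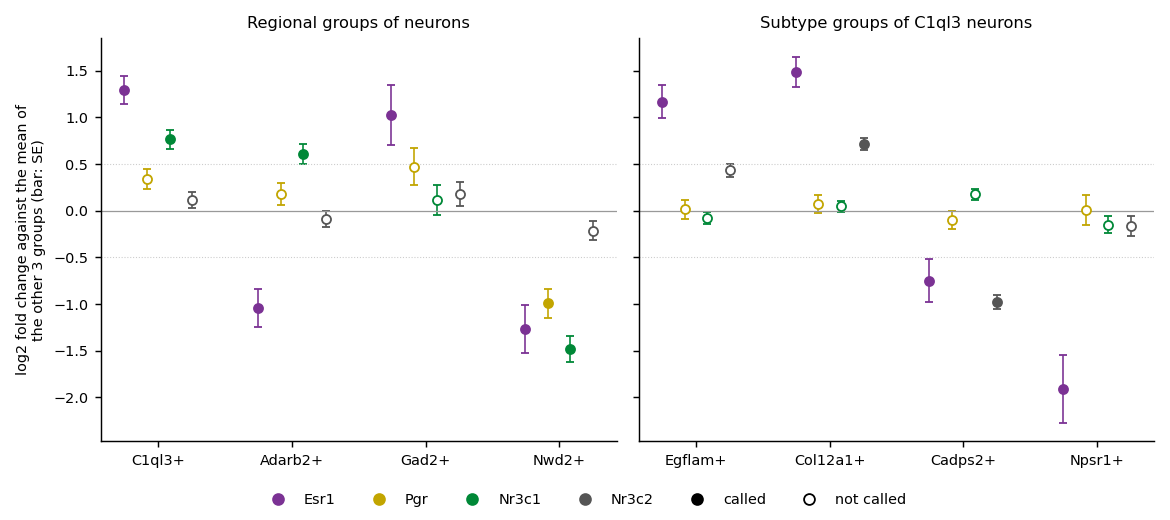
Log2 fold change (y axis, bar: SE) of each receptor in 1 group against the mean of the other 3, for regional groups (left) and subtypes of *C1ql3*+ neurons (right). Filled symbols were called and open ones were not, and the dotted lines mark 0.5 and -0.5. *Esr1* (purple) has a filled symbol in all 8 groups, *Nr3c1* (green) in regional groups and *Nr3c2* (grey) in *Cadps2*+ and *Col12a1*+ neurons.

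The female and male libraries were compared within neurons, *C1ql3*+ neurons and each other cell type. The receptors were tested 21 times, and 0 of these tests passed at an adjusted p under 0.05. At an unadjusted p under 0.05 there were 2, *Nr3c2* in astrocytes and in microglia. Of all genes, 2948 of 9804 in astrocytes, 1106 of 4910 in microglia and 4061 of 15278 in neurons had an unadjusted p under 0.05. The share of all genes that passed was 15.2% in neurons, 15.0% in *C1ql3*+ neurons, 14.0% in astrocytes, 12.8% in oligodendrocytes, 8.93% in ependymal cells, 6.99% in microglia, 6.48% in endothelial cells, 6.33% in OPCs and 3.35% in fibroblasts. The sexes differ also in depth, in mitochondrial percent and in how their libraries are named in the metadata, and 23225 of the 33502 genes had UMIs in both sexes. These differences, and any in sequencing run or gene annotation, cannot be told apart from sex.

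In *C1ql3*+ neurons *Esr1* was at 16.4 ± 7.25 CPM in male (SD, n = 4) and 19.1 ± 1.24 CPM in female libraries (n = 6). *Pgr* was at 33.2 ± 2.39 CPM in male (SD, n = 4) and 29.8 ± 3.73 CPM in female libraries (n = 6). *Nr3c1* was at 177 ± 19.8 CPM in male (SD, n = 4) and 189.8 ± 27.9 CPM in female libraries (n = 6), and *Nr3c2* was at 149 ± 26.3 CPM in male (SD, n = 4) and 137 ± 10.4 CPM in female libraries (n = 6). Male and female libraries overlapped for each gene. The log2 fold changes, female against male, were 0.13 (adjusted p = 0.789, SE 0.25) for *Esr1*, -0.21 (adjusted p = 0.309, SE 0.13) for *Pgr*, 0.05 (adjusted p = 0.862, SE 0.13) for *Nr3c1* and -0.19 (adjusted p = 0.385, SE 0.13) for *Nr3c2*. In all neurons they ran from -0.21 for *Pgr* to 0.02 for *Esr1*.

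In glia the lowest unadjusted p-values belonged to *Nr3c2*. In astrocytes it was at 488 ± 123 CPM in male (SD, n = 4) and 363 ± 43.9 CPM in female libraries (n = 6), a log2 fold change of -0.38 (adjusted p = 0.145, SE 0.17) that passed without male library 2 (-0.51 (adjusted p = 0.0215)). In microglia it was at 209 ± 20.6 CPM in male (SD, n = 4) and 145 ± 43.4 CPM in female libraries (n = 6), or -0.53 (adjusted p = 0.179, SE 0.22). *Esr1* in microglia was at 49.6 ± 3.61 CPM in male (SD, n = 4) and 30.7 ± 9.41 CPM in female libraries (n = 6). The 4 male libraries lay between 45.6 and 53.8 CPM, on 5 to 39 UMIs in a library. The 6 female libraries lay between 17.4 and 41.5 CPM, on 2 to 8 UMIs in a library. How many other genes separate the libraries in this way was not counted. With nuclei thinned to 2000 UMIs, *Esr1* was found in 7.39% of male and 4.42% of female microglia (means of libraries, exact permutation test, p = 0.162, adjusted p = 0.743). *Esr1* did not pass the filter in microglia. Without the filter it gave -0.68 (adjusted p = 0.355, SE 0.40, background 8.37% of genes), which does not pass. Microglia had a median of 1774 to 4348.5 UMIs in male and 1466 to 2741.5 in female libraries.

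Whether the differences between marker groups depended on sex was tested as an interaction in the same fits. Over 32 tests 0 were called, 2 had an unadjusted p under 0.05 (*Nr3c2* in *Npsr1*+ and in *Cadps2*+ neurons) and the lowest adjusted p was 0.648. Of all genes, 0.00831% were called in *C1ql3*+, 0.00831% in *Adarb2*+, 0.0% in *Gad2*+ and 0.141% in *Nwd2*+ neurons and 0.0% in each of the 4 subtypes, so that 0 calls among the receptors is near what all genes gave. At an unadjusted p under 0.05 there were 572 of 8715 genes in *Cadps2*+ and 414 in *Npsr1*+ neurons.

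**Figure D5:**
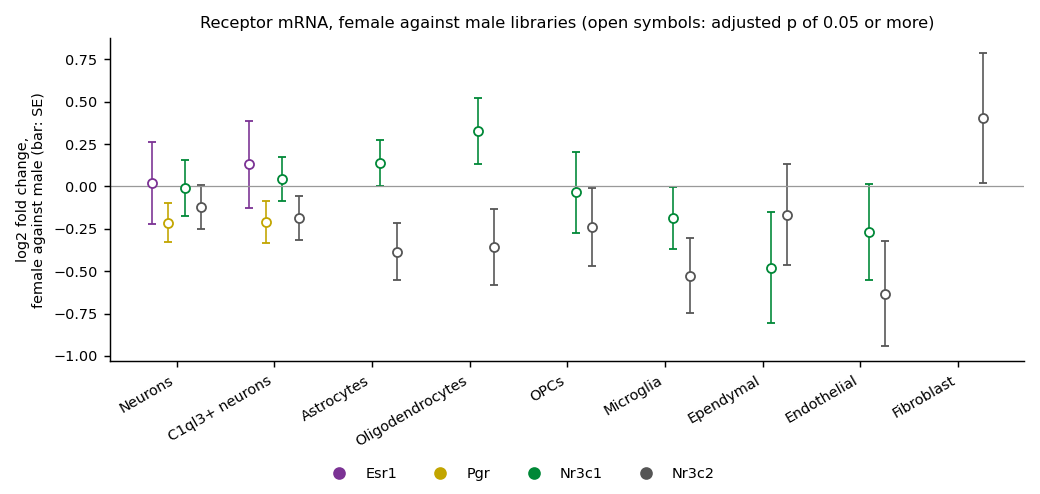
Log2 fold change of female against male libraries (y axis, bar: SE) of each receptor in neurons, *C1ql3*+ neurons and the other deposited cell types (x axis), for the genes that passed the filter in that type. All symbols are open, since the adjusted p was 0.05 or more in each of the 21 tests, and the lowest value is that of *Nr3c2* in endothelial cells (-0.63).

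The share of nuclei with a UMI of each receptor was taken after each nucleus was thinned to 2000 UMIs, since it rises with depth. *Esr1* was found in 5.61% ± 3.27 of microglia (SD, n = 10), 3.44% ± 1.33 of *C1ql3*+ neurons and 2.63% ± 0.887 of all neurons. Oligodendrocytes, which served as a background for free RNA, were at 0.521% and astrocytes at 0.293%. Without thinning, the shares were 7.77% in microglia, 14.1% in *C1ql3*+ neurons and 0.791% in oligodendrocytes, at median depths of 2168, 12128 and 2321 UMIs. Thinning left out 430 of 993 microglia, 15 of 5315 *C1ql3*+ neurons and 847 of 2462 oligodendrocytes. *Pgr* was found in 5.66% ± 0.738 of *C1ql3*+ neurons (unthinned 27.6%), and its shares of 0.247% in microglia and 0.660% in astrocytes lay below the 1.05% of oligodendrocytes. *Nr3c2* was found in 50.2% ± 8.13 of astrocytes and 22.1% ± 3.63 of *C1ql3*+ neurons (unthinned 58.6% and 61.6%), beside 20.6% ± 6.06 of oligodendrocytes. *Nr3c1* was found in 42.9% ± 10.3 of microglia and 29.2% ± 4.50 of *C1ql3*+ neurons (unthinned 48.5% and 74.8%), beside 32.5% ± 6.81 of oligodendrocytes. The *C1ql3*+ share of *Nr3c1* lay below that of oligodendrocytes and the share of *Nr3c2* within 1 SD of it, and neither share is read as a difference from oligodendrocytes, which were at 209 and 112 CPM of these genes.

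None of 20 thinned shares (4 genes in 5 groups of nuclei) differed between female and male libraries in an exact permutation test over libraries (two-sided, lowest adjusted p = 0.743). Without thinning, the shares of *Pgr*, *Nr3c1* and *Nr3c2* in *C1ql3*+ neurons changed, female minus male, by -21.5, -22.1 and -25.6 percentage points, each at p = 0.00476, the smallest value these libraries allow (exact permutation test, adjusted p = 0.0119), beside female libraries of lower depth.

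Co-detection was measured in *C1ql3*+ neurons as an odds ratio per library over 10 strata of depth, with an exact two-sided sign-flip permutation test over libraries and adjustment over the 6 pairs. Nuclei with an *Esr1* UMI had an *Nr3c2* UMI more often than other nuclei of like depth, with a mean log2 odds ratio of 0.68 ± 0.39 (SD, n = 9 libraries, above 0 in 8 of 9, exact p = 0.00781, adjusted p = 0.0469). Male library 1 gave no ratio, since all of its 47 nuclei with *Esr1* had *Nr3c2*. Leaving out any 1 of 8 other libraries raised the adjusted p to 0.0938, with values of 0.60 to 0.77 over all omissions, and the ratio within subtype groups was 0.52 (adjusted p = 0.0469, exact permutation test). Nuclei without a subtype marker (1597) and mixed nuclei (418) each counted as a group there. Differences between subtypes inside those groups remain in the ratio, which cannot set subtype aside. The pair *Pgr* and *Nr3c1* was at 0.41 ± 0.56 (n = 10, above 0 in 7 of 10, exact permutation test, adjusted p = 0.105) and passed with 5 strata of depth (0.44, adjusted p = 0.041) and without female library 6 (0.49, adjusted p = 0.0469). *Esr1* and *Pgr* were at 0.14 ± 0.29 and *Nr3c1* and *Nr3c2* at -0.06 ± 0.49 (n = 10 each), neither of which passed.

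Genes around the 4 receptors were read from fixed lists of other steroid receptors, chaperones, coregulators, steroid-converting enzymes and genes known to respond to corticosteroids or estrogen. Names are the largest calls of a list. In neurons, 3426 genes were higher and 2304 lower of 9842 tested (median log2 fold change 0.16). Of 11 other receptors, 3 were higher, among them *Pgrmc1* (1.11) and *Esrra* (estrogen-related receptor alpha, 1.00), and 3 were lower, *Paqr6* (-2.80), *Paqr4* (-1.47) and *Paqr8* (-0.88). Of 14 corticosteroid-responsive genes, 2 were higher, *Sgk1* (1.18) and *Per1* (0.61), and 10 were lower, led by *Tsc22d3* (-2.82), *Nfkbia* (-2.68) and *Cdkn1a* (-2.58), with a list median of -1.27. Of 11 chaperones 0 were higher and 5 lower, among them *Bag1* (-1.19) and *Hsp90ab1* (-0.84). Of 11 coregulators *Ncoa7* (1.46) was higher and *Nrip1* (-1.16) lower, and of 5 enzymes *Cyp7b1* (0.57) was higher and 3 lower. *Ccnd1*, the 1 gene of the estrogen-responsive list that passed the filter over cell types, was lower in neurons (-1.58) and astrocytes (-1.50) and higher in microglia (1.93). The list also holds *Pgr*, which was higher in neurons (2.90) in the fit without the filter. With DESeq2's size factors, which moved the median of all genes in neurons by -0.19 (2797 genes higher and 2845 lower), 8 chaperones were lower, *Per1* (0.42) and *Cyp7b1* (0.38) fell short of the size for a call in neurons, and *Sgk1* (0.49) and *Paqr7* (0.49) did so in *C1ql3*+ neurons.

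In astrocytes (2113 genes higher and 1935 lower), 6 of 11 other receptors were higher and 1 lower, with *Paqr6* at 4.47, *Paqr8* at 3.89 and *Paqr7* at 2.08. Of 5 enzymes 4 were higher, among them *Hsd11b1*, which regenerates active corticosterone (4.05), and *Cyp7b1* (2.72). Of 14 corticosteroid-responsive genes 6 were higher, led by *Ddit4* (2.08), *Mt2* (1.98) and *Tsc22d3* (1.90), and 4 were lower, led by *Sgk1* (-2.99) and *Fkbp5* (-1.83). In microglia (2094 genes higher and 2859 lower), *Fkbp5*, an immunophilin that binds the glucocorticoid receptor complex, was at 2.66. Of 11 coregulators 3 were higher, led by *Nrip1* (2.71) and *Ncoa3* (1.65), and 2 lower, *Ncoa1* (-0.94) and *Ncoa7* (-0.58). Of 11 other receptors 2 were higher and 5 lower there. Of 14 corticosteroid-responsive genes there 3 were higher and 7 lower, with *Zbtb16* at -3.50 and *Klf9* at -2.29.

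Between groups of neurons fewer listed genes were called. In *C1ql3*+ neurons (1291 genes higher and 823 lower of 12031), 2 of 9 other receptors were higher, among them *Paqr7* (0.53), and 1 was lower, *Esrrg* (estrogen-related receptor gamma, -3.53). The enzymes *Cyp7b1* (0.95) and *Srd5a1*, a steroid reductase (0.62), and the corticosteroid-responsive *Dusp1* (0.70) and *Sgk1* (0.54) were higher, while *Hsd17b12* (-0.55), *Zbtb16* (-1.03) and *Nrip1* (-0.79) were lower. Of 12 chaperones 0 were higher and 0 lower. In *Cadps2*+ neurons *Cyp7b1* (0.67) was higher and *Klf9* (-0.50) lower, and in *Col12a1*+ neurons 0 listed genes were called at adjusted p under 0.05 with the size needed (edgeR).

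Genes with the profile most like each receptor were taken as the highest Pearson correlations of mean log2(CPM + 1) across the 16 deposited clusters, among 16289 genes. They were *Gna14* (0.93), *Slc16a10* (0.87), *Arhgap22* (0.86), *Mctp1* (0.86) and *Adcy7* (0.85) for *Esr1*, and *Gm15414* (0.98), *Inha* (0.97), *Gm13629* (0.97), *Prkar1b* (0.97) and *Slc6a7* (0.97) for *Pgr*. For *Nr3c1* they were *Synrg* (0.83), *Gnaq* (0.78), *Twistnb* (0.77), *Mospd2* (0.76) and *Smad7* (0.76), and for *Nr3c2* *Nr1d2* (0.92), *Adamtsl5* (0.90), *Gstt2* (0.90), *Cped1* (0.89) and *Col1a2* (0.87). The 16 points share libraries and depth, and the values are a description.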

How the data were processed

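Single nuclei of PVT punches were sequenced as 10x Genomics 3′ libraries. Per the submitters' processing notes, reads were processed with Cell Ranger 6.1.1 and mm10, while the study's methods name an earlier version of Cell Ranger. The authors deposited raw UMI counts of every gene in every nucleus, not normalized, and the mitochondrial percent per nucleus was computed by the authors, who removed nuclei with few genes or a high mitochondrial percent and clusters of doublets, so that no doublet caller was run here. The deposited metadata gave the library, sex and cluster name per nucleus, and 23 further columns of it were not used.

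The 4 members, the markers and the gene lists were chosen with earlier results of these data known. Named genes are the 4 members, the 8 markers, the 3 largest calls per list and direction and the 5 most correlated genes per member, except 1 listed gene that is not reported here. Nuclei were summed per library and group in Python 3.11.15 (numpy 2.4.6, scipy 1.17.1), keeping sums of at least 10 nuclei. The test was that of edgeR 4.0.16 in R 4.3.3 (TMM, filterByExpr, glmQLFit, glmQLFTest) with library as a term, or with sex alone between female and male libraries. *Esr1* and *Pgr* did not pass filterByExpr over the cell types and are given from the fit without it, a choice made after seeing the data, as were its alternatives and the co-detection within subtypes. Where groups are missing from a library, the other libraries carry the comparison. On simulated data, 100% of genes changed by 1 on the log2 scale and 0.0717% of unchanged genes were called in the comparison of C1ql3+ neurons (11362 genes). The changed genes were drawn above a minimum level that the *Esr1* means in the regional groups (3.23 to 18.3 CPM) do not reach. All genes were given the same dispersion. The 100% therefore does not cover *Esr1*. Alternatives were DESeq2 1.42.0, DESeq2's size factors in edgeR, no filter, no library term, 1 sex alone, nuclei thinned to 2000 UMIs, genes with UMIs in both sexes, 1 marker UMI more, leaving out each library, and clusters made without the 8 markers and the 4 members (scikit-learn 1.9.0, igraph 0.11.9, leidenalg 0.10.2). The clusters made without the markers were named by those markers afterwards. SEs were obtained from the log2 fold change and the root of its F statistic. A UMI counts 1 molecule, and the levels have no interval for counting error beside the SD between libraries.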

Additional observations from a re-analysis of the deposited data

Results flagged for a closer look

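Each receptor's levels in male and in female libraries were examined for a library that lay apart from its own group, in 70 groups of 4 to 6 libraries, and 3 were found. Chance flags about 1 in 20 groups. *Nr3c2* in oligodendrocytes was at 58.2 CPM in female library 5, where the 6 female libraries had a median of 104 and a highest value of 118 CPM. *Pgr* in Col12a1+ neurons was at 21.2 CPM in male library 2, where the 4 male libraries had a median of 35.8 and a highest value of 37.3 CPM. *Nr3c2* in Col12a1+ neurons was at 274 CPM in female library 2, where the 6 female libraries had a lowest value of 161 and a median of 169 CPM. The call of *Nr3c2* in Col12a1+ neurons held without any 1 of the 10 libraries (log2 fold changes of 0.66 to 0.74). The cause of these values was not tested.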

How the results depend on the processing

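Of 1503 values of 85 results recomputed, 1429 kept their side of the threshold. Those called in either run also kept their direction. Direction was not counted where neither run gave a call, and some of those values changed sign. *Nr3c1* in neurons (0.05), for example, ran from -0.13 to 0.13 without 1 library. *Nr3c2* in neurons (log2 fold change -0.49) reached the size for a call with DESeq2's size factors (-0.69), DESeq2 (-0.69), genes with UMIs in both sexes (-0.63), thinned nuclei (-0.57), male (-0.72) and female libraries alone (-0.53), and ran from -0.69 to -0.40 without 1 library. *Esr1* in Cadps2+ neurons (-0.75) did not pass among female libraries (-0.56) or with no library term (-0.58), and ran from -0.91 to -0.40 without 1 library. Among results called in at least 1 run, directions turned for *Pgr* in astrocytes (0.10 in male libraries, 0.32 thinned). They also turned for *Esr1* in fibroblasts (-0.83 in male libraries, and from -0.12 to 1.98 without 1 library, the former without female library 3). Without thinning, so did the share of nuclei with *Nr3c1* (female minus male -22.1 points in C1ql3+ neurons, -16.0 in all neurons). Unthinned, *Pgr* and *Nr3c2* in C1ql3+ neurons stood at -21.5 and -25.6. The cause was not tested. Genes called moved from 5730 to 13067 (neurons) and from 2114 to 3335 (C1ql3+) with no filter, which tests more genes, and to 1087 (C1ql3+) when thinned. In Cadps2+ neurons 903 became 2010 with no filter, 358 thinned and 1386 in clusters made without the markers. Between sexes in C1ql3+ neurons 2019 became 4289 with no filter, 1004 thinned and 813 among genes counted in both sexes, and ran from 1633 to 3393 without 1 library, the latter without male library 2. The log2 odds ratio of *Esr1* and *Nr3c2* ran from 0.60 to 0.77, and that of *Pgr* and *Nr3c1* from 0.27 to 0.49 without 1 library, the latter at 0.44 with 5 depth strata.

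Same-numbered male and female libraries did not deviate together (correlations of 0.0076, -0.207, -0.0922 and 0.218), so that the numbers do not pair them. A replicate block over numbers 1 to 4 changed no call in 21 comparisons and gave, in C1ql3+ neurons, 0.24 for *Esr1*, -0.27 for *Pgr*, 0.07 for *Nr3c1* and -0.13 for *Nr3c2*. Low counts limit *Esr1* and *Pgr* in glia, where a library held 2 to 39 UMIs of *Esr1* in microglia.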

Other observations

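Across the 8 deposited neuron clusters the receptors ran differently, given here as levels without a test because the clusters were made from all genes of these nuclei. *Esr1* was at 25.3 ± 6.44 CPM in Neurons (1) and 13.9 ± 6.72 CPM in Neurons (5) (SD, n = 10 libraries each), and at 3.09 to 10.5 CPM on average in the other clusters. *Nr3c1* ran from 34.0 ± 16.9 CPM in Neurons (6), the cluster that gave most Nwd2+ nuclei, to 231 ± 36.0 CPM in Neurons (4). *Nr3c2* was lowest in Neurons (4), at 51.7 ± 15.4 CPM, and highest in Neurons (5), at 189.5 ± 50.8 CPM, the cluster that gave most Gad2+ nuclei. In Neurons (5) *Nr3c1* was at 95.7 ± 22.0 CPM. *Pgr* was at 14.1 ± 8.08 CPM in Neurons (6) and at 23.5 to 36.5 CPM on average elsewhere. Of the astrocyte clusters, *Nr3c2* was at 433 ± 99.6 CPM in Astrocytes (1) (n = 10) and 321 ± 44.9 CPM in Astrocytes (2) (n = 9), while *Nr3c1* was at 223 ± 21.0 and 226 ± 49.8 CPM.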
